A study of Mus musculus with 3 samples.

Results

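The lateral ganglionic eminence (LGE) lies beside the medial ganglionic eminence (MGE) in the embryonic basal forebrain. The levels of 10 genes of LGE progenitors, and of the striatal neurons that arise from them, were compared across 3 populations of sorted mouse cells. They are the progenitor factors *Gsx1* and *Gsx2*, the homeobox genes *Meis1* and *Meis2*, the striatal transcription factors *Ebf1*, *Foxp1*, *Foxp2* and *Ikzf1*, and the signaling genes *Ppp1r1b* and *Drd2*. The genes were named as a lineage, with earlier results of these data known, and each was found on the array through the RefSeq transcript accession its probes carry. All 10 had a probe. Together they had 15 of the 26576 probes named in this way, which stand for 20141 genes, out of 55681 different mouse probes on the array.

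RNA expression arrays were used to compare cells made in culture with their counterpart in the embryo, and each population was measured on 1 array. The ES-Lhx6-GFP+ population and the ES-Lhx6-GFP- population were both sorted at day 12 (D12) from aggregates of J14 cells, a mouse ES line of 129S4/SvJae origin, which were given 100 ng/ml Dkk-1, a Wnt antagonist, and 6 nM SAG, an activator of the Sonic hedgehog pathway, to direct them toward ventral forebrain. MGE-GFP+ cells were sorted from the MGE of CD1 embryos at E12.5, with no period in culture. All 3 populations carried an Lhx6-GFP BAC, a transgene in which *Lhx6* regulatory sequences drive GFP in young MGE-type neurons, and both ES populations also carried a viral gene with the 692-mCherry enhancer reporter. J14 is a single line, male by the labels, which give the embryos as female and do not say how many were pooled. Strain, sex, culture and source of the cells cannot be told apart when MGE-GFP+ cells are compared with ES cells.

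The LGE and the MGE share a general program for making GABA neurons and differ in the factors that set the later fate. *Gsx2*, helped by *Gsx1*, establishes LGE identity in dividing progenitors, while *Nkx2-1* directs the MGE toward *Lhx6* cells and holds back LGE fates. LGE progenitors give rise mostly to the medium spiny projection neurons of the striatum, which carry dopamine receptors and use DARPP-32, the product of *Ppp1r1b*, to relay dopamine signals, and also to interneurons of the olfactory bulb. *Foxp1*, *Ebf1* and *Ikzf1* act as these neurons mature, and several of the 10 genes also work outside the striatum, with *Meis* and *Ebf* genes used in the hindbrain and in mesenchyme, and *Ikzf1* in blood.

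Promoter sequences are shown for *Gsx1* and *Gsx2*, the related progenitor genes of the lineage, and for *Ebf1*, the member furthest below its ES-Lhx6-GFP- value in ES-Lhx6-GFP+ cells. Each is the 160 bases before the annotated transcription start, on the plus strand, 5′ to 3′, from RefSeq on GRCm38.p6. The windows are chr5:147188536-147188695 for *Gsx1*, chr5:75075441-75075600 for *Gsx2* and chr11:44617940-44618099 for *Ebf1*. Capitals mark the 1 motif found in each of the first pair, CAAGTG in *Gsx1*, the core of sites bound by Nkx2-1, and TATAAA, the TATA box, in *Gsx2*.
Gsx1: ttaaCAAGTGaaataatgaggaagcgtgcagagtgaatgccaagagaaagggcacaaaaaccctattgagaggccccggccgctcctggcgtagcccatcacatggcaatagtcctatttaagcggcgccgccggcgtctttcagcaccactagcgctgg
Gsx2: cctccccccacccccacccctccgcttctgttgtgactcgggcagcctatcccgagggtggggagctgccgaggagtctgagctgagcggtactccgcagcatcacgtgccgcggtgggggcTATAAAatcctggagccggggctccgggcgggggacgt
Ebf1: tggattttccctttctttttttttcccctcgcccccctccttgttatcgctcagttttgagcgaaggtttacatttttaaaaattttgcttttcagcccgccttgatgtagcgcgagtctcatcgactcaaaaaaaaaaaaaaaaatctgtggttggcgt

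The CAAGTG of *Gsx1* began 156 bases before the start and the TATAAA of *Gsx2* 38 bases before it. Both strands of 300-base windows, from 250 bases before to 50 bases after each start, were searched for CAAGTG, for TATAAA, for the homeodomain core TAATTA, the Meis core TGACAG and the CCAAT box. RefSeq windows were found for 8 of the 10 members, 12 windows in all. CAAGTG was in 2 of these 12, of *Gsx1* and *Ebf1*, against 13.6% of all 32851 windows. The *Ebf1* match began 108 bases before another start of that gene, outside the printed stretch. TATAAA was in 2, of *Gsx2* and *Meis2*, against 13.6%. TAATTA was in 1 window, of *Foxp1*, against 5.29%, and TGACAG was in 1, also of *Foxp1*, against 19.2%. CCAAT was in 3 windows, of *Foxp1*, *Meis1* and *Meis2*, against 37.4%. None of these motifs overlapped another in a member window, and a match is a string of letters and not a binding site. The C and G content differed among the printed stretches, at 69.4% for *Gsx2*, 54.4% for *Gsx1* and 40.6% for *Ebf1*.

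Levels are given as relative intensity, the background-subtracted intensity of a probe divided by the 75th percentile of all mouse probes on the same array, so that 1 marks that percentile. They compare arrays for 1 probe and do not rank genes. A difference here is between 1 array and another, with no replicates and no test, and its precision is limited by that number. The only error at hand is that of probes printed at 5 or more places, whose SD of log2 intensity was 0.139 to 0.144, which makes 2 SDs of a difference 0.40 on the log2 scale, or 1.32-fold. This error leaves out differentiation, sorting and amplification. From 77.1% to 90.6% of the mouse probes were well above background, the highest share on the ES-Lhx6-GFP+ array. On that array 86 of the 106 adenovirus E1A and ERCC control probes, which match no mouse sequence, also passed, against 34 on each of the others, and their 95th percentile was a relative intensity of 0.504 in ES-Lhx6-GFP+, 0.247 in ES-Lhx6-GFP- and 0.264 in MGE-GFP+ cells. A probe at or below that value is described as within the control range. The paper's methods do not say whether RNA matching these control probes was added to the samples. Over all genes the median log2 difference was 0.27 when ES-Lhx6-GFP+ cells were set against ES-Lhx6-GFP- cells. It was -0.36 when MGE-GFP+ cells were set against the former and -0.06 against the latter. The 3 comparisons share arrays in pairs and are not independent of each other.

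The sort was checked with *Lhx6*, whose 3 probes disagreed. One probe had a relative intensity of 7.79 in ES-Lhx6-GFP+, 0.473 in ES-Lhx6-GFP- and 17.8 in MGE-GFP+ cells, and another had 22.6, 1.63 and 44.1. These were 16.5-fold and 13.9-fold higher in ES-Lhx6-GFP+ than in ES-Lhx6-GFP- cells. The remaining probe was bright everywhere, at 150, 145 and 170, a difference of 1.03-fold between the ES populations. The other 5 MGE markers on the list, among them *Nkx2-1* and *Lhx8*, were also higher in ES-Lhx6-GFP+ than in ES-Lhx6-GFP- cells, each by 2-fold or more.

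The lineage did not follow a single order across the populations. ES-Lhx6-GFP- cells had the highest level of 5 members, *Gsx1*, *Meis2*, *Ebf1*, *Foxp1* and *Ppp1r1b*. ES-Lhx6-GFP+ cells had the highest level of 3, *Gsx2*, *Ikzf1* and *Drd2*, and MGE-GFP+ cells of 2, *Meis1* and *Foxp2*. MGE-GFP+ cells had the lowest level of 6 members, *Meis2*, *Ebf1*, *Foxp1*, *Ikzf1*, *Ppp1r1b* and *Drd2*. Where a gene had several probes, all gave the same order. Of the 30 gaps between neighbouring populations in the orders of the 15 probes, 23 were over 2 SDs of the repeat spots and 7 were within them. The 7 set the highest population of *Gsx2*, *Drd2* and *Meis1*, and the lowest of *Ikzf1* and of the first *Foxp1* probe. Those places are therefore not resolved by this error.

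**Figure D1:**
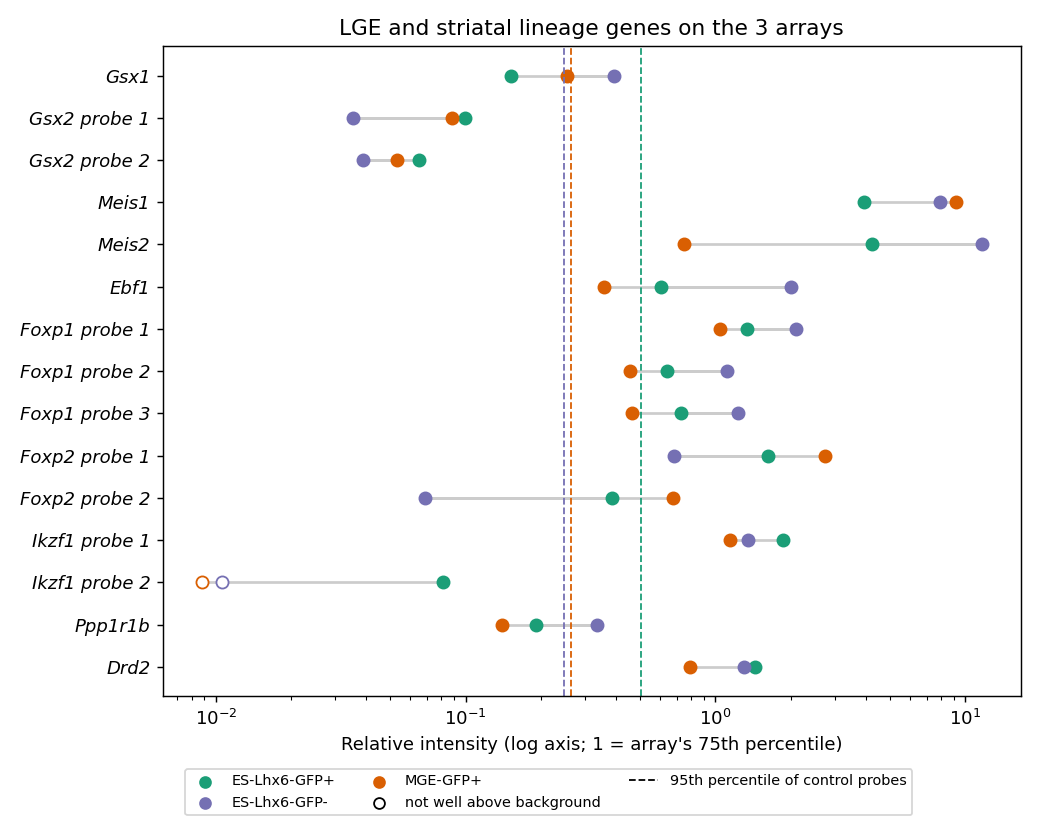
Relative intensity of the 15 probes of the 10 genes (log axis, 1 is the 75th percentile of the array) on the 3 arrays, with open points for values not well above background and dashed lines at the 95th percentile of the control probes of the array of the same color. *Meis2* spans the widest range among probes well above background everywhere, from 0.746 in MGE-GFP+ to 11.6 in ES-Lhx6-GFP- cells, and both *Gsx2* probes lie left of the control lines on every array.

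*Gsx1* and *Gsx2* encode closely related homeodomain proteins of ventral forebrain progenitors, with *Gsx2* strongest in the LGE. The single *Gsx1* probe (A_55_P2085075, NM_008178) had a relative intensity of 0.151 in ES-Lhx6-GFP+, 0.392 in ES-Lhx6-GFP- and 0.254 in MGE-GFP+ cells. ES-Lhx6-GFP- cells were thus highest and ES-Lhx6-GFP+ cells lowest, with both gaps over 2 SDs, and only the ES-Lhx6-GFP- value was above the control range. Between the ES populations *Gsx1* was 2.59-fold lower with GFP than without, at log2 -1.37, and MGE-GFP+ cells were 1.68-fold above the first and 1.54-fold below the second.

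The first *Gsx2* probe (A_51_P520468, NM_133256) had 0.0995 in ES-Lhx6-GFP+, 0.0356 in ES-Lhx6-GFP- and 0.0884 in MGE-GFP+ cells. The second (A_55_P2052071, same transcript) had 0.0653, 0.0388 and 0.0531. All 6 values were well above background but within the control range, so that *Gsx2* was not detectable over non-mouse probes in any population. In the mean of both probes *Gsx2* was 2.17-fold higher in ES-Lhx6-GFP+ than in ES-Lhx6-GFP- cells, but quantile normalization and the deposited values turned this to log2 differences of -0.32 and -0.09. The 2 populations with GFP differed by less than 2 SDs, at log2 -0.24, and that sign also turned with 4 of 10 alternatives. Of the 9 values of both *Gsx* genes, only that of *Gsx1* in ES-Lhx6-GFP- cells was above the controls.

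Markers of progenitors and dividing cells ran in the same direction as *Gsx1* between the ES populations. All 10 of those markers were lower in ES-Lhx6-GFP+ than in ES-Lhx6-GFP- cells, 9 of them at least 2-fold, where 6.4% of all genes were. *Vim*, an intermediate filament of radial glia, was 10.4-fold lower and *Slc1a3*, their glutamate transporter, 13.6-fold lower, to a value within the control range. The summed relative intensity of the 10 markers was 12.8 in ES-Lhx6-GFP+, 66.7 in ES-Lhx6-GFP- and 16.5 in MGE-GFP+ cells. Of these markers 6, 10 and 7 were above the control range. Their part in the values of *Gsx1* was not tested. In sorted bulk populations such as these, fewer cells of a type and less RNA per cell cannot be told apart.

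*Meis1* and *Meis2* encode homeodomain partners of Pbx and Hox proteins, and *Meis2* is a common label of LGE progenitors and of striatal neurons. The *Meis2* probe (A_55_P2047155, NM_001159569) had a relative intensity of 4.23 in ES-Lhx6-GFP+, 11.6 in ES-Lhx6-GFP- and 0.746 in MGE-GFP+ cells. All 3 were above the control range, and each step of this order was over 2 SDs. *Meis2* was 2.74-fold lower in ES-Lhx6-GFP+ than in ES-Lhx6-GFP- cells, and in MGE-GFP+ cells it was 5.67-fold below the first and 15.6-fold below the second. The last, a log2 difference of -3.96, was the widest of the 10 genes in any comparison, and over the alternatives it lay between -3.96 and -3.66. Against ES-Lhx6-GFP+ cells the log2 difference of -2.50 became -1.76 with scaling to the 50th percentile and kept its direction in every alternative run.

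*Meis1* took another order. Its probe (A_55_P1995572, NM_001193271) had 3.94 in ES-Lhx6-GFP+, 7.90 in ES-Lhx6-GFP- and 9.15 in MGE-GFP+ cells. MGE-GFP+ and ES-Lhx6-GFP- cells differed by less than 2 SDs, at log2 0.21, and ES-Lhx6-GFP+ cells stood below both. They were 2.00-fold below ES-Lhx6-GFP- cells, a value at the border of the 2-fold count that ranged from log2 -1.45 to -0.89 over the alternatives, and 2.32-fold below MGE-GFP+ cells. So the 2 *Meis* genes were both lower in ES-Lhx6-GFP+ than in ES-Lhx6-GFP- cells but lay on opposite sides of ES-Lhx6-GFP+ cells in the MGE, by log2 1.21 for *Meis1* and -2.50 for *Meis2*. None of the related or partner genes *Meis3*, *Pbx2*, *Pbx3* and *Pbx4* reached 2-fold in any comparison in the mean over their probes, though *Pbx3* in MGE-GFP+ against ES-Lhx6-GFP+ cells did so, at log2 1.28, with the median over all genes taken off. *Meis3* came nearest to it against ES-Lhx6-GFP- cells, 1.89-fold higher in MGE-GFP+ cells, beside *Pbx4*, 1.89-fold lower. The 3 *Meis3* probes disagreed in sign, at log2 -0.75, 0.29 and 1.28 between the ES populations. In MGE-GFP+ against ES-Lhx6-GFP+ cells the same probes gave 1.70, 0.82 and -0.59.

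Markers of the hindbrain and spinal cord, where *Meis* genes are also used, had a summed relative intensity of 8.32 in ES-Lhx6-GFP+, 14.3 in ES-Lhx6-GFP- and 4.18 in MGE-GFP+ cells. Of these 12 markers 4, 8 and 2 were above the control range. *Hoxc6*, *Hoxd4*, *En1* and *Evx1* were within it on every array, while *Lhx1*, made by several kinds of brainstem and spinal neuron, had 4.89, 7.45 and 0.937. *Gbx2*, which is also made in the MGE, went the other way, at 0.689, 0.436 and 2.88, and was most of the summed level of MGE-GFP+ cells. The median log2 difference of the list was -0.70 between the ES populations, with 9 of 11 markers lower in ES-Lhx6-GFP+ cells. In MGE-GFP+ cells it was -2.22 against ES-Lhx6-GFP+ and -2.43 against ES-Lhx6-GFP- cells, with 10 of 11 lower in each. The part of these markers in the values of *Meis2* was not tested.

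*Ebf1* encodes a helix-loop-helix factor of newborn striatal projection neurons. Its probe (A_55_P2065513, NM_007897) had a relative intensity of 0.607 in ES-Lhx6-GFP+, 2.00 in ES-Lhx6-GFP- and 0.359 in MGE-GFP+ cells. All 3 values were above the control range, though by only 1.20-fold and 1.36-fold in the populations with GFP, and 8.12-fold in ES-Lhx6-GFP- cells. *Ebf1* was 3.30-fold lower in ES-Lhx6-GFP+ and 5.58-fold lower in MGE-GFP+ than in ES-Lhx6-GFP- cells, log2 differences of -1.72 and -2.48. Between the populations with GFP it was 1.69-fold lower in the MGE, which scaling to the 50th percentile reduced to a log2 difference of -0.01.

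The related gene *Ebf3* ran in the same order, at 0.482, 1.67 and 0.0712. It was 3.46-fold lower in ES-Lhx6-GFP+ and 23.5-fold lower in MGE-GFP+ than in ES-Lhx6-GFP- cells, and only its ES-Lhx6-GFP- value was above the control range. Markers of mesenchyme and pericytes, in which *Ebf* genes are also active, summed to 3.99 in ES-Lhx6-GFP+, 5.20 in ES-Lhx6-GFP- and 0.321 in MGE-GFP+ cells. Of these 8 markers 2, 5 and 0 were above the control range, and *Rgs5*, *Foxc1* and *Lum* were within it on every array. Taken singly, the markers were split between the ES populations, 4 higher with GFP and 4 lower, with 2 on each side reaching 2-fold. The median of these differences was -0.23 on the log2 scale, beside 0.27 over all genes. In the MGE all 7 with a value were below ES-Lhx6-GFP+ cells, and 6 of 7 below ES-Lhx6-GFP- cells. The part of the mesenchymal markers in the values of *Ebf1* was not tested.

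*Foxp1* and *Foxp2* encode forkhead repressors that are both made in the developing striatum, *Foxp1* in projection neurons at large and *Foxp2* also in other regions of the forebrain, cerebellum and brainstem. The first *Foxp1* probe (A_52_P276792, NM_053202) had a relative intensity of 1.34 in ES-Lhx6-GFP+, 2.10 in ES-Lhx6-GFP- and 1.05 in MGE-GFP+ cells. The second (A_55_P2088825, same transcript) had 0.638, 1.11 and 0.454, and the third (A_55_P2105452, NM_001197321) had 0.726, 1.23 and 0.464. All 3 probes were above the control range on all arrays and put ES-Lhx6-GFP- cells first. Together they were 1.67-fold lower in ES-Lhx6-GFP+ than in ES-Lhx6-GFP- cells, under the 2-fold count, and 2.35-fold lower in MGE-GFP+ than in ES-Lhx6-GFP- cells, which scaling to the 50th percentile brought under 2-fold, at log2 -0.93. The gap between the populations with GFP, log2 -0.50, was within 2 SDs for the first probe and over them for the others, and turned to 0.25 with scaling to the 50th percentile.

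*Foxp2* took the opposite order. Its first probe (A_51_P233753, NM_053242) had 1.63 in ES-Lhx6-GFP+, 0.683 in ES-Lhx6-GFP- and 2.74 in MGE-GFP+ cells, all above the control range. Its second (A_66_P130601, same transcript) had 0.385, 0.0690 and 0.674, and only the MGE-GFP+ value passed the controls. Both probes put MGE-GFP+ cells first and ES-Lhx6-GFP- cells last, with every gap over 2 SDs. *Foxp2* was 3.65-fold higher in ES-Lhx6-GFP+ and 6.27-fold higher in MGE-GFP+ than in ES-Lhx6-GFP- cells, log2 differences of 1.87 and 2.65, and the first probe alone gave 2.39-fold and 4.02-fold. Among the 10 genes it was the one member at least 2-fold higher than in ES-Lhx6-GFP- cells in both populations with GFP. No alternative turned any of its 3 differences.

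*Ikzf1* encodes Ikaros, a zinc finger factor of developing striatal neurons that is best known from lymphocytes, and its probes did not measure alike. The first (A_55_P2023612, NM_001025597) had a relative intensity of 1.86 in ES-Lhx6-GFP+, 1.35 in ES-Lhx6-GFP- and 1.14 in MGE-GFP+ cells, all above the control range. The second (A_66_P124139, same transcript) had 0.0814 in ES-Lhx6-GFP+ cells, within the control range, and was not well above background at 0.0106 in ES-Lhx6-GFP- and 0.00880 in MGE-GFP+ cells. ES-Lhx6-GFP+ cells came first with both probes. By the first probe they were 1.38-fold above ES-Lhx6-GFP- and 1.63-fold above MGE-GFP+ cells, and by the second at least 3.87-fold and at least 3.88-fold. A lower limit of this kind sets the dim side at the lowest level that was well above background on its array. Only through these limits did the mean of the probes pass 2-fold, at log2 1.21 and -1.33, and using only probes well above background on both arrays gave 0.47 and -0.70.

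Blood and microglial markers were mostly within the control range. Of 9 such markers 2 were above the control range in each ES population and 3 in MGE-GFP+ cells, and *Ptprc*, the general leukocyte marker, *Gata1*, *Cd34*, *Spi1* and *Hbb-bh1* were within it on every array. Their summed relative intensity of 6.96 in ES-Lhx6-GFP+, 10.5 in ES-Lhx6-GFP- and 4.03 in MGE-GFP+ cells came mostly from *Tal1*, which also marks GABA neurons of the brainstem and spinal cord and had 3.75, 7.87 and 0.125, and from *Csf1r*, named here for its share of that sum after its values were seen, most of it from 1 of its 3 probes, at 6.07, 6.50 and 8.15. Marker by marker, 7 of the 9 were higher in ES-Lhx6-GFP+ than in ES-Lhx6-GFP- cells, as *Ikzf1* was. Of these 5 were higher by 2-fold or more, where 24% of all genes were, and all 5 were within the control range in both ES populations. The median log2 difference of the markers was 1.65, beside 0.27 over all genes. In MGE-GFP+ against ES-Lhx6-GFP+ cells 6 of the 9 were lower, with a median of -0.37 beside -0.36 over all genes. Their part in the values of *Ikzf1* was not tested. Of 8 endothelial markers 1, 2 and 1 were above the control range.

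*Ppp1r1b* and *Drd2* belong to the signaling apparatus of mature medium spiny neurons, *Drd2* encoding the dopamine receptor of the indirect pathway. The *Ppp1r1b* probe (A_55_P2026275, NM_144828) had a relative intensity of 0.191 in ES-Lhx6-GFP+, 0.334 in ES-Lhx6-GFP- and 0.139 in MGE-GFP+ cells. Only the ES-Lhx6-GFP- value was above the control range, by 1.35-fold. *Ppp1r1b* was 1.75-fold lower in ES-Lhx6-GFP+ and 2.40-fold lower in MGE-GFP+ than in ES-Lhx6-GFP- cells. The latter ranged from log2 -1.26 to -0.34 over the alternatives and was under 2-fold in 6 of them, among them the deposited values at -0.66. Its sign between the populations with GFP, log2 -0.46, turned with scaling to the 50th percentile, quantile normalization and the deposited values.

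The *Drd2* probe (A_52_P529650, NM_010077) had 1.44 in ES-Lhx6-GFP+, 1.30 in ES-Lhx6-GFP- and 0.794 in MGE-GFP+ cells. All 3 values were 2.86-fold to 5.26-fold above the control range. The ES populations differed by less than 2 SDs, at log2 0.15, a sign that turned with scaling to the 50th percentile and with the median over all genes taken off. MGE-GFP+ cells were 1.82-fold below ES-Lhx6-GFP+ and 1.64-fold below ES-Lhx6-GFP- cells, so that no *Drd2* difference reached 2-fold. Of the other dopamine receptors, *Drd3* and *Drd4* were within the control range in all populations, and *Drd5* was not well above background on any array. *Drd3* was 2.96-fold and *Drd4* 2.46-fold higher in ES-Lhx6-GFP+ than in ES-Lhx6-GFP- cells within that range. *Drd1*, the receptor of the direct pathway, went the other way and is named after its values were seen. It had 0.196 in ES-Lhx6-GFP- cells, also within the control range, and was not well above background at 0.0222 in ES-Lhx6-GFP+ and 0.00508 in MGE-GFP+ cells, at least 6.22-fold and at least 9.33-fold lower.

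Counted over the lineage, 3 of the 10 genes reached 2-fold on the higher side in ES-Lhx6-GFP+ against ES-Lhx6-GFP- cells, *Foxp2*, *Ikzf1* and *Gsx2*, where 24% of all 18651 genes compared were that much higher. In the other direction 4 were at least 2-fold lower, *Ebf1*, *Meis2*, *Gsx1* and *Meis1*, where 6.4% of all genes were. The median of the members was a log2 difference of -0.77, beside 0.27 over all genes. Taking off that median left *Foxp2* alone on the higher side, at 1.60, and put 6 on the lower side, from *Ebf1* at -1.99 to *Foxp1* at the border of the count. With the median taken off, 18.0% of all genes were at least 2-fold higher and 9.88% lower. The split of all genes moved with the scaling too, to 14.9% higher and 13.7% lower at the 50th percentile and 11.5% and 15.0% after quantile normalization.

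**Figure D2:**
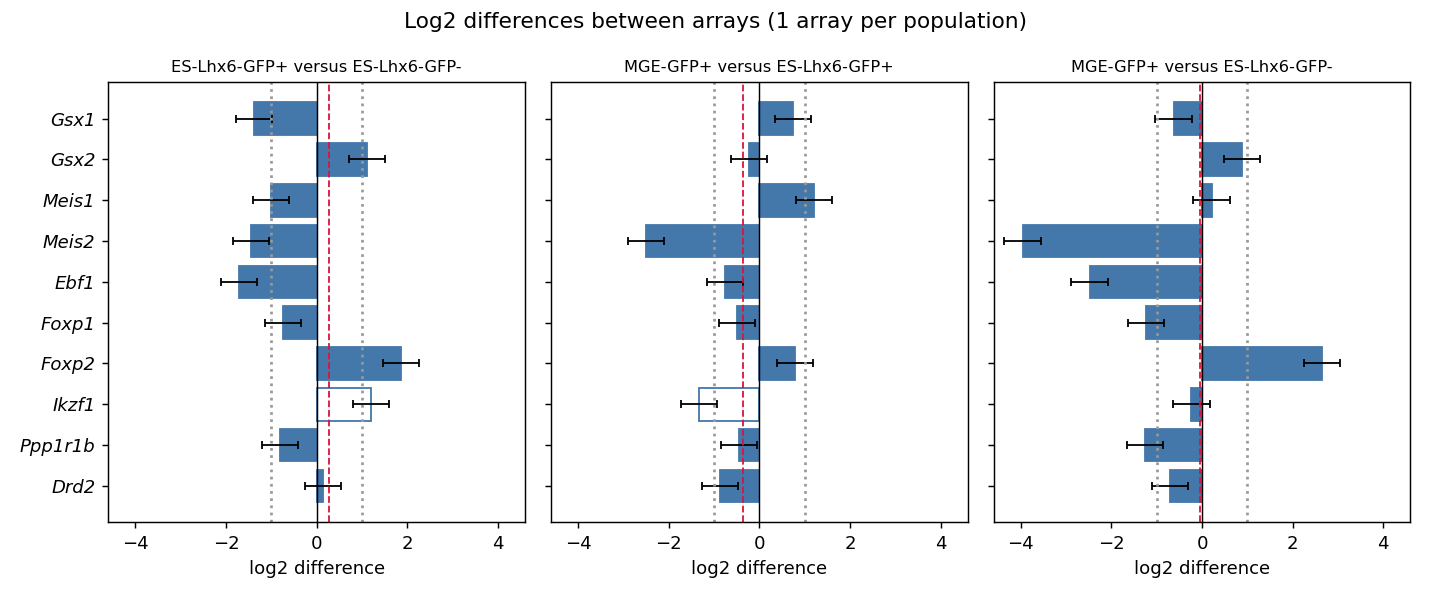
Log2 difference of each gene in the 3 comparisons, with bars for the mean over its probes, whiskers of 2 SDs of the repeat spots, dotted lines at 2-fold, a dashed line at the median over all genes, and open bars where 1 of the probes gives only a lower limit. *Meis2* and *Ebf1* lie below 0 in all 3 panels and *Foxp2* above it.

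Between the populations with GFP, 1 of the 10 genes was at least 2-fold higher in MGE-GFP+ than in ES-Lhx6-GFP+ cells, *Meis1*, against 5.49% of 18576 genes. On the lower side were 2, *Meis2* and *Ikzf1*, against 32.2% of all genes. The median of the members was -0.48 and that of all genes -0.36. Less that median, *Meis1*, *Foxp2* and *Gsx1* were 1.57, 1.14 and 1.10 higher on the log2 scale, and *Meis2* fell by 2.15. With the median taken off, 12.7% of all genes were at least 2-fold higher and 24.2% lower. Scaled to the 50th percentile, 26.0% of all genes were at least 2-fold higher and 17.1% lower, and quantile normalization gave 14.6% and 13.7%.

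Against ES-Lhx6-GFP- cells, 1 of the 10 genes was at least 2-fold higher in MGE-GFP+ cells, *Foxp2*, where 9.91% of 17021 genes were. On the lower side were 4, *Meis2*, *Ebf1*, *Ppp1r1b* and *Foxp1*, where 17.2% of all genes were. The median of the members was -0.67, beside -0.06 over all genes. At the 50th percentile 17.9% of all genes were higher and 12.6% lower, and the 4 lower members became 2, without *Ppp1r1b* at -0.96 and *Foxp1* at -0.93.

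**Figure D3:**
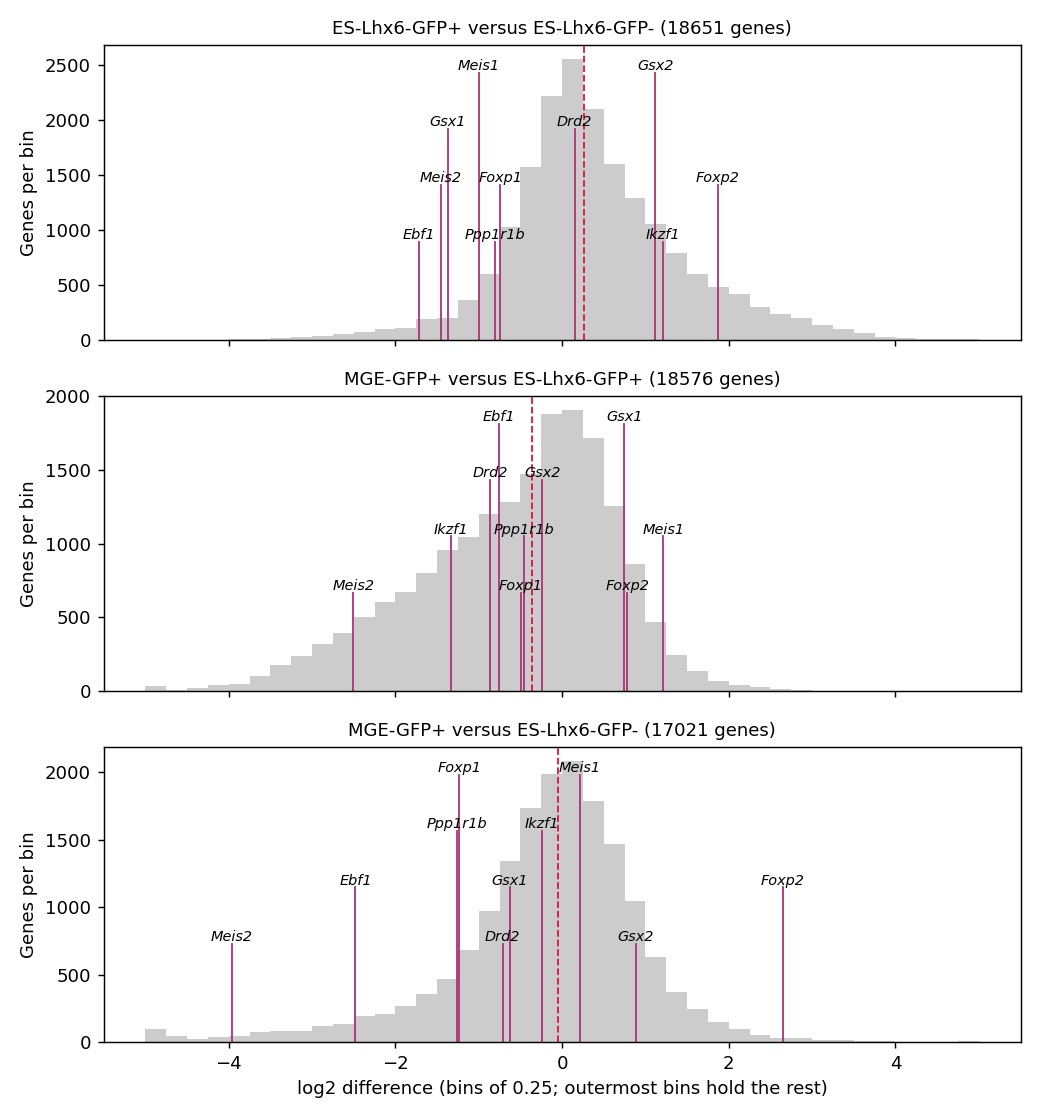
Number of genes per bin of 0.25 in log2 difference for all genes compared, with the dashed line at their median and a labelled line for each of the 10 genes, whose height has no meaning. *Ebf1*, *Meis2*, *Gsx1* and *Meis1* stand in the lower tail of the top panel, and *Meis2* at -3.96 and *Foxp2* at 2.65 stand in opposite tails of the bottom panel.

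A wider list of 15 transcription factors of the LGE and striatum held genes on both sides in each comparison. In ES-Lhx6-GFP+ against ES-Lhx6-GFP- cells 2 were at least 2-fold higher and 5 lower, with a median of -0.74, where 24% and 6.4% of all genes were. In MGE-GFP+ cells 3 were higher and 4 lower than in ES-Lhx6-GFP+ cells, beside 5.49% and 32.2% of all genes, and 4 higher and 5 lower than in ES-Lhx6-GFP- cells, beside 9.91% and 17.2%. *Bcl11b*, or Ctip2, which medium spiny neurons and some young interneurons make, had a mean relative intensity over its probes of 1.26 in ES-Lhx6-GFP+, 0.231 in ES-Lhx6-GFP- and 5.92 in MGE-GFP+ cells, and was 17.1-fold higher in MGE-GFP+ than in ES-Lhx6-GFP- cells, where 1 of its 2 probes was above the control range. *Zfp503*, or Nolz1, a factor of early striatal neurons, had 1.31, 3.34 and 0.107 and was 30.0-fold lower in MGE-GFP+ than in ES-Lhx6-GFP- cells, with both probes within the control range in MGE-GFP+ cells. Both factors belong to striatal differentiation, and their orders were opposite.

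*Etv1* is also listed by the paper as a marker of the globus pallidus, whose neurons arise from MGE progenitors. It had 0.198 in ES-Lhx6-GFP+, 0.677 in ES-Lhx6-GFP- and 3.96 in MGE-GFP+ cells. This was 19.5-fold higher in MGE-GFP+ than in ES-Lhx6-GFP+ cells, where both probes were within the control range. *Sp9*, a zinc finger factor of newborn striatal and other ventral forebrain neurons, had 0.258, 0.0756 and 0.477, and only the last was above the control range. *Foxp4*, of the same family as *Foxp1* and *Foxp2*, had 0.322, 1.36 and 0.279. It was 4.67-fold lower in ES-Lhx6-GFP+ than in ES-Lhx6-GFP- cells. Between the populations with GFP it differed by less than 2 SDs, at log2 -0.07. *Sall3* had 0.0758, 0.445 and 0.0102, the last not well above background. It was 5.87-fold lower in ES-Lhx6-GFP+ than in ES-Lhx6-GFP- cells, to a value within the control range. *Zfp521* had 0.189, 0.348 and 0.750 and was 3.93-fold higher in MGE-GFP+ than in ES-Lhx6-GFP+ cells, where both its probes were within the control range.

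**Figure D4:**
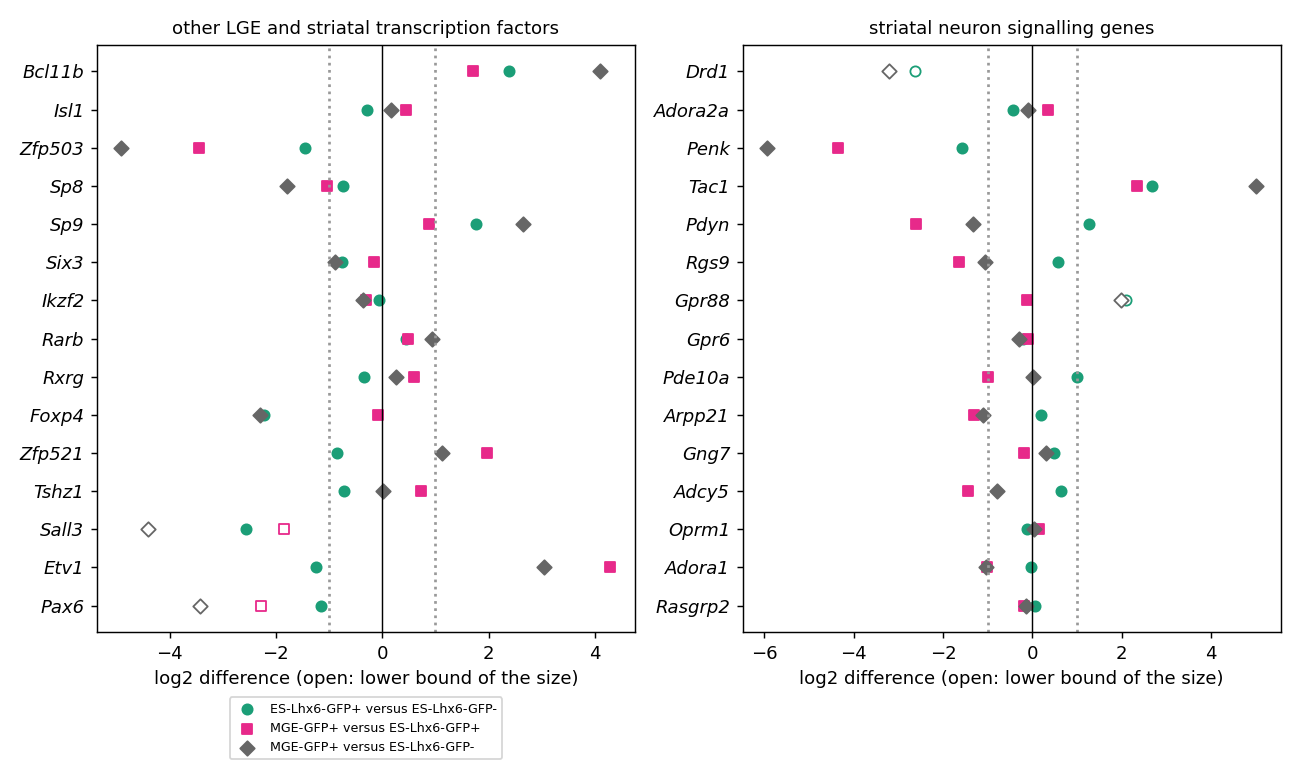
Log2 differences of 15 further LGE and striatal transcription factors and 15 signaling genes of striatal neurons in the 3 comparisons, with open symbols where the value is a lower limit of the size and dotted lines at 2-fold. *Bcl11b* and *Zfp503*, and likewise *Tac1* and *Penk*, lie on opposite sides of 0 in each comparison.

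Of 15 signaling genes of striatal neurons 4 were at least 2-fold higher and 2 lower in ES-Lhx6-GFP+ than in ES-Lhx6-GFP- cells, beside the 24% and 6.4% of all genes. In MGE-GFP+ cells 1 was higher and 7 lower than in ES-Lhx6-GFP+ cells among the 14 with a value, beside 5.49% and 32.2% of all genes. Against ES-Lhx6-GFP- cells 2 were higher and 6 lower, beside 9.91% and 17.2%. The peptide genes *Penk* and *Tac1* took opposite orders. *Penk*, the enkephalin precursor of the indirect pathway, had 6.57 in ES-Lhx6-GFP+, 19.7 in ES-Lhx6-GFP- and 0.321 in MGE-GFP+ cells, and was 61.2-fold lower in MGE-GFP+ than in ES-Lhx6-GFP- cells. *Tac1*, the substance P precursor of the direct pathway, had 1.13, 0.177 and 5.69, and was 32.1-fold higher in that comparison, over an ES-Lhx6-GFP- value within the control range. Neither peptide is confined to the striatum, and *Pdyn*, the dynorphin precursor, was within the control range on every array.

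Of the enzymes and regulators in that list, *Pde10a*, the phosphodiesterase of medium spiny neurons, was 2.01-fold higher in ES-Lhx6-GFP+ than in ES-Lhx6-GFP- cells, and *Rgs9*, a brake on dopamine and opioid receptor signals, was 3.11-fold lower in MGE-GFP+ than in ES-Lhx6-GFP+ cells. The 1 of the 3 *Rgs9* probes above the control range gave 1.42-fold, and those within it 3.17-fold and 6.70-fold. *Arpp21*, a phosphoprotein of the same neurons as *Ppp1r1b*, was 2.15-fold lower in MGE-GFP+ than in ES-Lhx6-GFP- cells and above the control range in ES-Lhx6-GFP- cells alone. The 15 family and partner genes gave 2 higher and 2 lower of 14 with a value in the ES comparison, beside 24% and 6.4% of all genes. In MGE-GFP+ against ES-Lhx6-GFP- cells they gave 1 and 2 of 14, beside 9.91% and 17.2%. In MGE-GFP+ against ES-Lhx6-GFP+ cells they gave 0 and 4 of 13, beside 5.49% for the higher side. The 4 of 13 were near the 32.2% of all genes lower in that comparison. Among them *Ppp1r1a*, a relative of *Ppp1r1b*, was 2.39-fold lower in MGE-GFP+ than in ES-Lhx6-GFP+ cells, at 0.414 and 0.989. *Foxp3* was 2.10-fold lower, at 0.244, within the control range, and 0.512, barely above it.

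**Figure D5:**
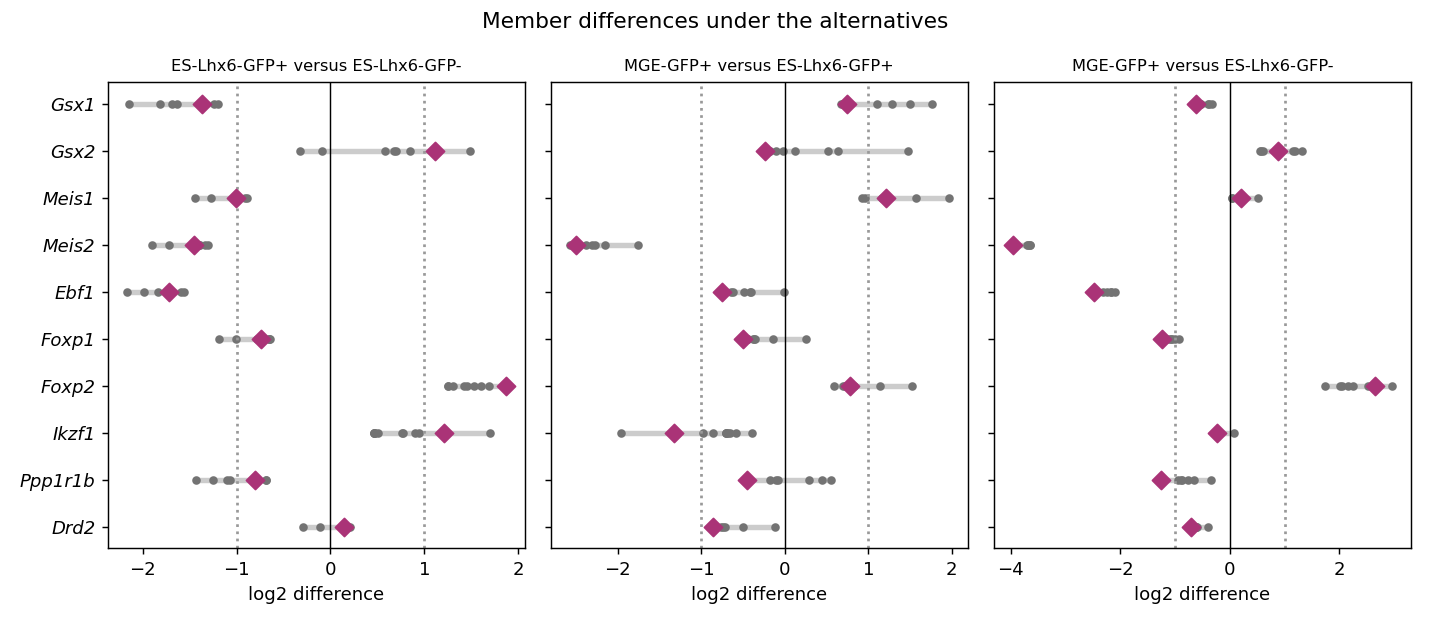
Log2 difference of each of the 10 genes as reported (diamonds) and under each alternative way of processing the arrays (points), with lines over their range and dotted lines at 2-fold. *Ebf1* and *Meis2* stay below -1 in the left and right panels, *Foxp2* stays above 1 there, and *Gsx2* crosses 0 in the left and middle panels.

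Under up to 11 alternatives, *Ebf1* lay between -2.17 and -1.56 and *Meis2* between -1.90 and -1.30 in ES-Lhx6-GFP+ against ES-Lhx6-GFP- cells, and *Foxp2* between 1.25 and 1.87. *Meis2* stayed between -2.57 and -1.76 in MGE-GFP+ against ES-Lhx6-GFP+ cells, *Ebf1* between -2.48 and -2.10 and *Foxp2* between 1.73 and 2.95 in MGE-GFP+ against ES-Lhx6-GFP- cells. *Gsx1* kept its sign throughout in all 3 comparisons, while *Gsx2*, *Drd2*, *Foxp1*, *Ppp1r1b* and *Ikzf1* each changed sign in at least 1 comparison under some alternative.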

How the data were processed

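Each of 3 sorted populations was measured on 1 one-color array. The authors scanned the arrays and deposited Feature Extraction output, a background-subtracted intensity for each spot on a linear scale, not scaled between arrays. The file headers give version 10.7.3.1, 1 slide, 1 scan and mm9 as the build of the design, and each array has 62976 spots, where the labels name a smaller array format and another amplification kit than the paper. A second deposited file is a table of log2 values, whose column medians were 7.69, 7.68 and 7.69. Each value lay within 0.163, 0.315 and 0.212 (in the order ES-Lhx6-GFP+, then ES-Lhx6-GFP-, then MGE-GFP+) of quantile-normalized log2 median spot intensities, which settles the scale and direction. The exact normalization is not given in the sources used here.

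For each array, log2 intensity less its 75th percentile over mouse probes was taken with pandas 2.3.3 and numpy 2.4.6 in Python 3.11.15. Outlier spots (98 to 137) were left out, 0 spots were saturated, and the mean was taken over spots of the same probe. The software's call of well above background had to hold for a share of 0.5 or more of a probe's spots. Where only 1 array had the call, the other was raised to the lowest level with it, which gives a lower limit. A gene's difference is the mean over its probes, named through the RefSeq table of GRCm38.p6. The calculation was tested on simulated data. Normexp (offset 50) and the quantile alternative are described with the alternatives, normexp being run in limma 3.58.1 and R 4.3.3.

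The members and lists were chosen with earlier results of these data known, and some listed genes are not reported here and were left out of the list counts. The text names all members, *Lhx6*, per other list and comparison up to 4 genes of largest difference well above background on both arrays, and listed genes within the control range where a cell type is described. No table columns of unmapped samples were found (0).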

Additional observations from a re-analysis of the deposited data

How the results depend on the processing

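For each member and comparison 9 alternatives fixed at the start were run, and 2 more were chosen after seeing the data, normexp on median intensities and differences less the median over all genes. Normexp on mean intensities was not run, because the files hold median intensities in their place. No paired analysis was possible because each population had 1 array. Of 323 member differences over the alternatives, 13 had the other sign. In 11 of these the reported difference was under 2-fold, and they belonged to *Gsx2*, *Ppp1r1b*, *Drd2*, *Foxp1* and *Ikzf1*. The 2 sign changes of a difference of at least 2-fold were *Gsx2* in ES-Lhx6-GFP+ against ES-Lhx6-GFP- cells, at -0.32 with quantile normalization and -0.090 with the deposited values. Apart from these 2, 205 moved by less than the repeat-spot spread and 116 by more. Some of the 205 could not move, because the gene had a single probe, well above background on both arrays. Dropping the floor, keeping only such probes and taking the brightest probe then change nothing. The 3 members at least 2-fold higher in that comparison became 1 with scaling to the 50th percentile, quantile normalization, median intensities, deposited values, a floor at the 95th percentile of the control probes, normexp, and the median over all genes taken off. They became 2 with only probes well above background on both arrays and with the brightest probe of each gene. The 4 lower members became 6 with scaling to the 50th percentile and with the median taken off. With median intensities, the control floor and normexp they became 3. In MGE-GFP+ against ES-Lhx6-GFP+ cells the 1 higher member became 3 with scaling to the 50th percentile, 2 with quantile normalization and 3 with the median taken off. The 2 lower members became 1 under those settings and also with median intensities, deposited values, probes well above background on both arrays, the brightest probe of each gene, the control floor and normexp. In MGE-GFP+ against ES-Lhx6-GFP- cells the 1 higher member became 2 with scaling to the 50th percentile, quantile normalization and the brightest probe, and the 4 lower members became 2 with scaling to the 50th percentile. Smaller falls of that last count, as where *Ppp1r1b* was under 2-fold, are not listed. The causes were not tested, except that the control floor left 7, 7 and 9 members with a value. Low signal limits *Gsx2* everywhere, and *Gsx1* and *Ppp1r1b* in the populations with GFP.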

Other observations

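Some probes of the lists used here were bright and nearly equal in every population, where the other probes of the gene differed or were within the control range. The bright *Lhx6* probe had a log2 difference of 0.05 between the ES populations, where the other *Lhx6* probes had 4.04 and 3.80. The bright *Oprm1* probe, for the mu opioid receptor of striatal patches, had relative intensities of 228 and 211 in the ES populations with and without GFP and 278 in MGE-GFP+ cells, while the other *Oprm1* probe had 0.0681, 0.0878 and 0.0687, within the control range. *Oprm1* was named after its values were seen. A sum of levels over the striatal signaling genes is therefore not used.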
